A study of Mus musculus with 6 samples.

Results

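The regions described here were CUT&Tag regions that lay in an intron and within 10 kb of a transcription start site (TSS). In CUT&Tag, an antibody brings a transposase to the sites of its target on chromatin, and reads gather at those sites. A region was taken when its deposited annotation began with Intron and its distance to a TSS was at most 10 kb in either direction. Of 170890 regions in the T set table of TGF-b with NC, 26176 were such near-TSS intron regions (15.3%), and of 180118 in the T set table of siRNA with TGF-b, 26089 (14.5%). The S set tables held 6090 of 52723 (11.6%) and 6203 of 52579 (11.8%). The outermost members lay 9999 or 10000 bp from a TSS, and the nearest regions outside the limit lay at 10001 to 10003 bp.

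The 6 libraries came from primary cardiac fibroblasts of mouse heart, 3 in a T set and 3 in an S set, with 1 library per treatment and no replicate. Each set had a library labelled NC, one treated with TGF-b and one with TGF-b plus an siRNA, labelled SiTAZ in the T set and SiSRF in the S set. The paper describes the knockdown as one of Piezo2. The study profiled TAZ and SRF, which T and S are here assumed to stand for, as no label names the antibody. Strain, age and pooling of animals are not given in the sample labels, and the Tet3 deletion in the series' design text is attached to no sample. Regions of chromatin association are not transcripts, so neither the knockdown nor the labelled cell type could be checked with marker genes.

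TAZ does not bind DNA itself and reaches chromatin through TEAD factors, which also use enhancers far from promoters and often next to AP-1 sites. SRF binds the CArG box, a motif found close to the start sites of many actin cytoskeleton genes, including inside first introns. First introns near a TSS are rich in regulatory elements, and in fibroblasts they are known to carry enhancers of collagen and contractile genes. TGF-b is the cytokine that drives fibroblasts into the contractile, matrix-producing myofibroblast state.

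Genome sequence of the build of these tables (GRCm39) was not used here, so promoters were taken from RefSeq (GRCm38.p6) by gene symbol, as the 250 bases before a gene's start. They are shown because reads of a region within 1 kb of a TSS were counted in a window, inferred from the densities, that can reach this stretch. A promoter was shown only where the annotated transcript and the RefSeq gene had lengths within 1% of each other, so that both could be taken to share a start. Myl9, a myosin light chain of contractile cells, and Smurf1, a ubiquitin ligase that limits TGF-b signalling, are listed genes with a T set region in intron 1. Klhl18, an adaptor of a ubiquitin ligase, and Matn1, a cartilage matrix protein, carried the regions within 1 kb that lay farthest below 0 in the siRNA comparison of the T and S set, by the upper bound of the interval and among genes that met this condition. Capitals mark the CArG box, and all lines run 5′ to 3′ on the gene's strand.
Myl9, chr2:156775214-156775463, plus strand: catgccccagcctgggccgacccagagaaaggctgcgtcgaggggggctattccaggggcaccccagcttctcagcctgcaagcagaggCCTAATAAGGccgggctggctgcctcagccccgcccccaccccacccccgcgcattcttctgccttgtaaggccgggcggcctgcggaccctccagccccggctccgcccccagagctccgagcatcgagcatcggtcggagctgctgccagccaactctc
Smurf1, chr5:144965831-144966080, minus strand: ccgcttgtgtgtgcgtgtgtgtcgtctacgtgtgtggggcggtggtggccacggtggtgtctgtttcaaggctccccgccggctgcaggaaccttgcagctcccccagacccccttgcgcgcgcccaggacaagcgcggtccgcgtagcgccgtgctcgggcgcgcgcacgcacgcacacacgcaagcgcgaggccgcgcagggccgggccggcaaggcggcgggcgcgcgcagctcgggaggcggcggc
Klhl18, chr9:110476695-110476944, minus strand: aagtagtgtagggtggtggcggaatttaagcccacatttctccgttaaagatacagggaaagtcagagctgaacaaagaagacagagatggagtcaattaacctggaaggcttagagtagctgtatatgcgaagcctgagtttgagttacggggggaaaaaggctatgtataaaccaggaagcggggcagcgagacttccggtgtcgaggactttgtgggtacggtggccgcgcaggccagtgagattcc
Matn1, chr4:130944135-130944384, plus strand: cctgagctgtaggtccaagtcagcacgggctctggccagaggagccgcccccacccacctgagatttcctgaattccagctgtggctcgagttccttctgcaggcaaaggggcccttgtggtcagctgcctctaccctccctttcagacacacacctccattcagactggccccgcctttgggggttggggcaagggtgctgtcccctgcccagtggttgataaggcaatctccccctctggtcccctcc

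For this, 3 motifs were searched on both strands of these 250 bases, namely the TEAD core GGAATG, the AP-1 site TGANTCA and the CArG box. Of the 4 promoters, the Myl9 promoter held a CArG box and the others held none of these letters. Of all 32851 RefSeq promoters in the table, 12.6% held the TEAD core, 6.75% the AP-1 site and 1.47% the CArG box. Only 65.7% to 72.1% of the genes with a near-TSS intron region had a promoter in the table, so a comparison of motif shares over these genes is void.

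The regions were short and shallow. Median width was 95 bp and 84 bp in the T set tables and 142 bp in both S set tables. The deposited value is a normalized read density, which the authors rescaled for each pair of libraries. From its values it was inferred to be reads plus 1 per kb over a window of 2 kb around the region's midpoint, and all read counts and promoter windows below rest on this. Recovered reads had a median of 10 in NC and 6 in TGF-b over the T set near-TSS intron regions, and 7 and 10 over those of the S set. A library with 3 reads or fewer occurred in 45.5% and 54.1% of them in the T set tables, and in 31.0% and 28.3% in the S set tables, so many single folds rest on very few reads. All log2 ratios below are of density in the later library over the earlier one. The 95% intervals of single regions and of shares cover counting error only, and PCR reads are not independent molecules. Those of medians are rank intervals over regions taken as independent, although 5.12% to 19.9% of members had another region in their window and so share reads with it.

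Members were spread over many genes. In the T set table of TGF-b with NC they were assigned to 13265 genes, of which 7118 had a single region, and in the S set table to 4915 genes, of which 4007 had a single one. Between 27.5% and 28.6% of members lay upstream of the assigned TSS, inside an intron of some other transcript or gene. No member lay upstream within 2 kb, because the annotation calls that stretch promoter. Intron 1 held 41.8% to 43.2% of members. The gene whose intron held the region was not the gene of the nearest TSS in 17.1% to 18.2% of members, and in 34.3% to 37.5% of those upstream.

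Regions were called in each library by the authors. In the T set, 19867 of the regions called in NC (15.6%, Wilson 95% interval 15.4% to 15.8%) were near-TSS intron regions, 7536 of those called in TGF-b (14.2%, 13.9% to 14.5%) and 19500 of those called with siRNA (14.5%, 14.3% to 14.7%). Numbers for the S set were 3345 (11.95%, 11.6% to 12.3%), 2822 (10.9%, 10.5% to 11.3%) and 3477 (12.1%, 11.7% to 12.5%). Both sets had fewest in the TGF-b library, which also had fewest called regions in all. These were 53121 in the T set, against 127036 in NC and 134584 with siRNA, and 25891 in the S set, against 27986 and 28738. As a share, the intervals of TGF-b and siRNA overlapped in the T set. Of the near-TSS intron regions of the TGF-b library, 14.3% (13.5% to 15.1%) lay within 1 kb of a TSS in the T set, against 12.2% (11.7% to 12.6%) in NC and 11.95% (11.5% to 12.4%) with siRNA. The S set shares were 14.8% (13.6% to 16.2%), 12.7% (11.6% to 13.8%) and 13.3% (12.3% to 14.5%).

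Median density was highest within 1 kb of the TSS and changed little beyond 2 kb. In the T set table of TGF-b with NC, median densities of the NC and TGF-b libraries were 6.63 and 5.67 within 1 kb, 5.21 and 3.69 between 1 and 2 kb, and 4.77 and 3.18 between 5 and 10 kb. The TGF-b library thus differed more between the TSS and the outer bin than NC did, a difference that was not tested. In the table of siRNA with TGF-b, the median density was 4.27 in TGF-b and 5.28 with siRNA within 1 kb, and 2.56 and 4.11 between 5 and 10 kb. Among S set libraries, TGF-b gave 5.74 within 1 kb and 4.09 between 5 and 10 kb, and NC 5.59 and 4.89. Against siRNA, the S set TGF-b library gave 6.81 and 4.82, and the siRNA library 6.17 and 4.19. Densities of one library in different tables were rescaled separately and are not compared.

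**Figure D1:**
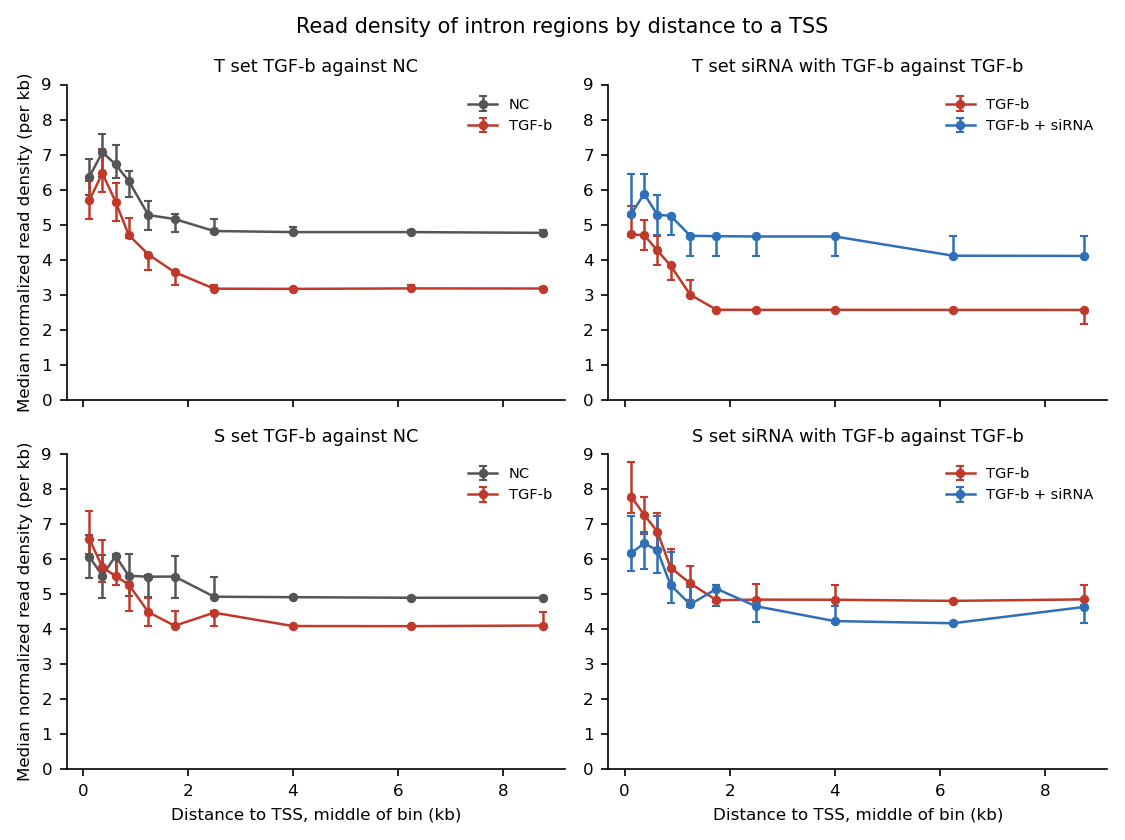
Median normalized read density (reads plus 1 per kb) of near-TSS intron regions by distance to the TSS in kb, for both libraries of each table, with 95% rank intervals of the medians as bars. All libraries are densest within 1 kb and change little beyond 2 kb, where the T set NC library stays near 4.77 and TGF-b near 3.18.

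The first comparison asked how TGF-b changed chromatin association. In the T set, 4202 near-TSS intron regions (16.1%) were at least 2-fold higher with TGF-b and 10992 (42.0%) at least 2-fold lower, against 17.3% and 42.1% of all regions of the table. The median log2 ratio was -0.69 (-0.70 to -0.65), and -0.65 over all regions. Of the S set regions, 1161 (19.1%) were at least 2-fold higher and 1683 (27.6%) at least 2-fold lower, against 17.4% and 26.7% of all regions, with a median of -0.19 (-0.24 to -0.16). These shares lie near the background of their tables. The S set median was 0.36 without the authors' line, and centring on the table's median brought the T set median to -0.04.

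The second comparison asked how the siRNA changed the association under TGF-b. Among T set regions, 12718 (48.7%) were higher by at least 2-fold with siRNA and 4208 (16.1%) lower by as much, against 49.7% and 16.2% of all regions, with a median log2 ratio of 0.94 (0.91 to 0.97). Among S set regions, 1075 (17.3%) were higher and 1647 (26.6%) lower, against 15.1% and 27.8%, with a median of -0.15 (-0.19 to -0.09). The T set median was -0.03 and the S set median 0.06 after centring on the table's median. Both comparisons of a set share the TGF-b library, so a low count there lowers the first ratio and raises the second.

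Within the near-TSS intron regions, the ratio varied with distance in the first 2 kb. With TGF-b in the T set, the median log2 ratio was -0.21 (-0.27 to -0.15) in 3292 regions within 1 kb, -0.63 (-0.69 to -0.53) in 2658 regions between 1 and 2 kb, -0.80 (-0.83 to -0.77) in 9274 between 2 and 5 kb and -0.79 (-0.80 to -0.74) in 10952 between 5 and 10 kb. The share at least 2-fold lower was 29.3% within 1 kb and 44.2% between 5 and 10 kb, while the share at least 2-fold higher moved little, from 18.4% to 16.1%. With siRNA in the T set, the median was 0.44 (0.32 to 0.45) within 1 kb, 0.92 (0.84 to 1.03) between 1 and 2 kb, and 1.04 (1.03 to 1.10) and 1.03 (1.004 to 1.05) beyond. The regions next to the TSS thus lay nearer to 0 in both T set tables. They were also deeper. With TGF-b, a library with 3 reads or fewer occurred in 29.1% of members within 1 kb and 47.9% of those at 1 to 10 kb. With siRNA the shares were 36.3% and 56.7%. Distance and depth cannot be told apart here, and the part of depth was not tested. Introns beyond 10 kb had medians of -0.77 and 1.05, like the outer bins, and promoter regions had medians of -0.01 and 0.11.

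With TGF-b in the S set, the medians also went down with distance, over a smaller range. The median was 0.06 (-0.04 to 0.18) in 821 regions within 1 kb, -0.23 (-0.39 to -0.07) between 1 and 2 kb, -0.29 (-0.37 to -0.22) between 2 and 5 kb and -0.22 (-0.29 to -0.18) between 5 and 10 kb. Within 250 bp of the TSS, the 195 regions had a median of 0.31 (0.09 to 0.43), and S set promoter regions one of 0.27. With siRNA the medians were -0.15 (-0.22 to -0.06) within 1 kb and -0.17 (-0.24 to -0.09) between 5 and 10 kb. In narrower bins they went from -0.26 within 250 bp to -0.03 between 1.5 and 2 kb. Within 250 bp, 9 of 184 regions (4.89%) passed 2-fold upward with siRNA and 24.5% downward, and between 1.5 and 2 kb 19.6% and 21.9%, against 15.1% and 27.8% of all regions of the table. The median of S set promoter regions with siRNA was 0.12, on the other side of 0 from the regions within 250 bp.

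**Figure D2:**
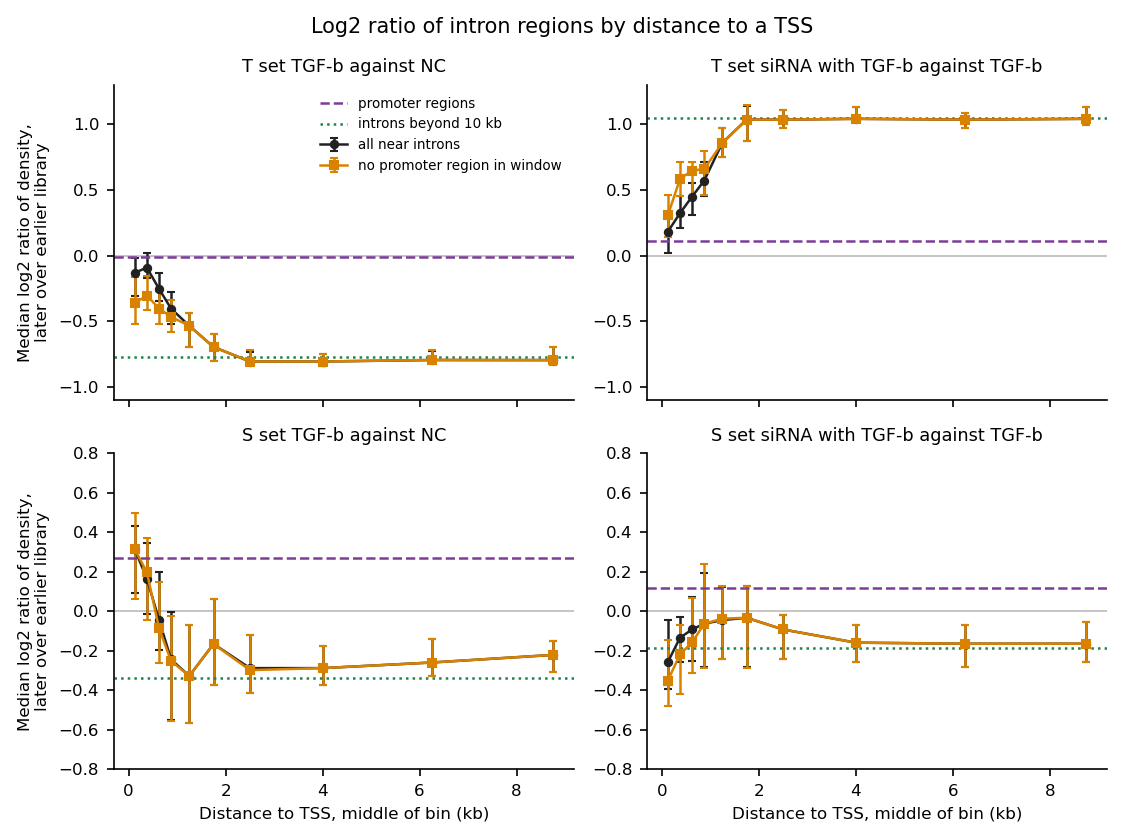
Median log2 ratio of density, later over earlier library, by distance to the TSS in kb for all near-TSS intron regions (circles) and those with no promoter region in their read window (squares), with 95% rank intervals as bars; the axes differ between the T set and the S set. The T set medians move from -0.13 and 0.18 within 250 bp to -0.79 and 1.04 beyond 7.5 kb, next to the line of introns beyond 10 kb.

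The window in which reads were counted can take in reads of a neighbouring promoter region. In the T set table of TGF-b with NC, 740 members within 1 kb had a promoter or 5′ UTR region of the same table within 1 kb of their midpoint. Their median densities were 12.8 (NC) and 13.3 (TGF-b) and their median log2 ratio 0.20 (0.13 to 0.26). The other 2552 had densities of 5.69 and 4.61 and a median of -0.38 (-0.44 to -0.32), still nearer to 0 than the -0.79 of the outer bin. With siRNA in the T set, 649 such members had a median of -0.12 (-0.20 to -0.01) and the other 2602 of 0.57 (0.46 to 0.65). For 67 such members of the S set, the median was 0.26 (0.09 to 0.65) with TGF-b and for 754 others 0.02 (-0.06 to 0.16), while with siRNA 111 had 0.11 (-0.06 to 0.29) and 739 others -0.21 (-0.29 to -0.09). Promoter reads below the calling threshold could also enter a window, and their part was not tested.

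T set medians of intron 1 and of later introns lay apart near the TSS and close together farther out. Within 1 kb in the T set, the median with TGF-b was -0.06 (-0.13 to -0.02) in 2204 regions of intron 1 and -0.58 (-0.69 to -0.52) in 1088 regions of later introns. Between 5 and 10 kb the values were -0.79 and -0.79. With siRNA the medians within 1 kb were 0.21 (0.14 to 0.27) and 0.77 (0.69 to 0.87), and between 5 and 10 kb 0.99 and 1.04. For TGF-b in the S set they were 0.16 (0.01 to 0.29) and -0.11 (-0.29 to 0.08) within 1 kb, and -0.15 and -0.29 between 5 and 10 kb. For siRNA in the S set they were -0.12 (-0.21 to -0.03) and -0.20 (-0.35 to -0.01) within 1 kb, with overlapping intervals, and -0.21 and -0.12 between 5 and 10 kb. A promoter region in the window also occurred more often within 1 kb in intron 1, at 29.3% against 8.73% in later introns for TGF-b in the T set, and its part in these values was not tested. The difference between intron classes was not tested. By side of the TSS, the T set medians for TGF-b were -0.76 upstream and -0.80 downstream between 5 and 10 kb, and those of the S set -0.11 (-0.22 to -0.005) and -0.29 (-0.37 to -0.22). The S set order was the other way round with siRNA, at -0.23 (-0.35 to -0.11) upstream and -0.12 (-0.21 to -0.06) downstream, and between 2 and 5 kb its medians with TGF-b were -0.26 and -0.31, with overlapping intervals.

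Most ratios had the sign of the library that called the region. With TGF-b in the T set, the 18640 near-TSS intron regions called only in NC had a median log2 ratio of -1.20 and the 6309 called only in TGF-b one of 1.33. Over all regions of the table called in the same way, the medians were -1.27 and 1.41. The 1227 called in both libraries (4.69% of members, against 5.42% of all regions) had a median of -0.19 (-0.26 to -0.13), where all regions called in both have 0 by the authors' scaling. Those 1227 also moved with distance, from 0.15 (0.004 to 0.26) within 1 kb to -0.27 (-0.38 to -0.17) between 5 and 10 kb. Over the same bins, members called only in NC went from -0.69 to -1.33, and those called only in TGF-b from 1.14 to 1.40. Both groups called in 1 library thus lay farther from 0 in the outer bin. In the siRNA table of the T set, members called only in TGF-b went from -1.05 to -1.42, and those called only with siRNA from 0.93 to 1.67. With siRNA in the T set, 947 regions called in both (3.63%, against 4.21% of all regions) had a median of 0.05 (-0.004 to 0.09). The 77 and 96 S set regions called in both (1.26% and 1.55%, against 2.19% and 3.90% of all regions) had medians of -0.09 and -0.09. Numbers of called regions were very uneven in the T set, with fewest in the TGF-b library, and their part in the medians was not tested.

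**Figure D3:**
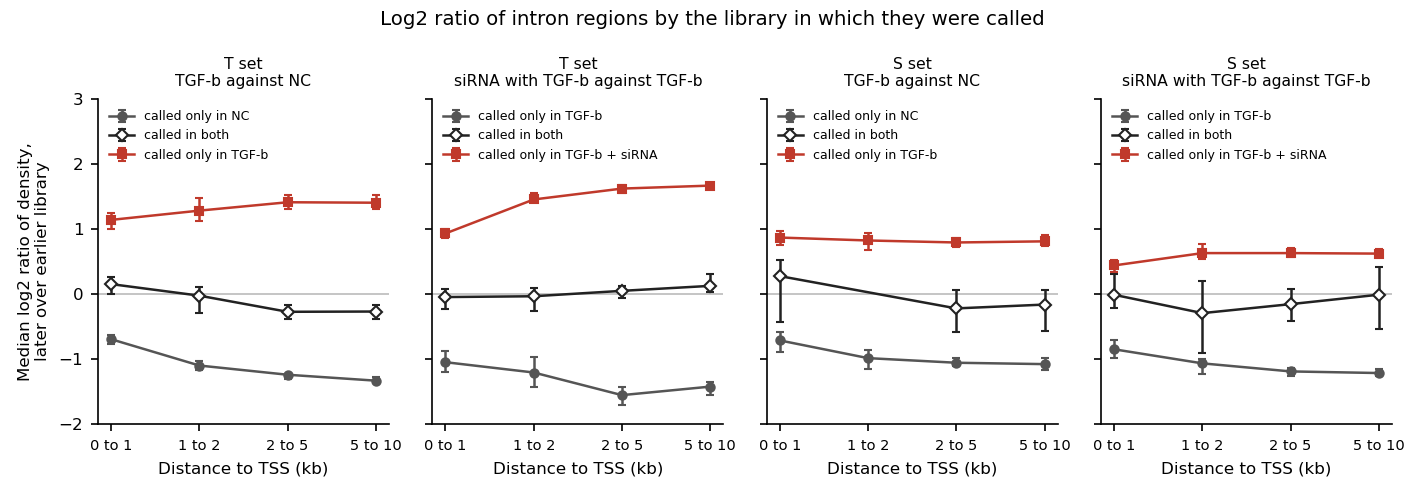
Median log2 ratio of density by distance to the TSS in kb for near-TSS intron regions called in 1 or in both libraries of a table, with 95% rank intervals as bars and groups under 10 regions left out. Regions called in both lie between the groups called in 1 library, which lie on that library's side, as the T set medians of -1.20 for NC and 1.33 for TGF-b show.

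A call and the read count did not always point the same way. Of the 509 T set members within 1 kb that were called only in NC and had a promoter region in the window, 256 (50.3%, 46.0% to 54.6%) were denser in TGF-b. Without a promoter region in the window this held for 332 of 1708 (19.4%, 17.6% to 21.4%), for 2695 of 18640 (14.5%) at all distances, and for 13.2% of all regions of the table called only in NC. Within 1 kb, the share was also higher with a promoter region in the window in the other pairs of library and table, with overlapping intervals for regions called only in TGF-b against NC in both sets, except for S set regions called only with siRNA, where it was 10 of 54 (18.5%, 10.4% to 30.8%) with a promoter region in the window and 111 of 377 (29.4%, 25.1% to 34.2%) without. An example is Dazap1 (ENSMUSG00000069565), an RNA-binding protein, whose region in intron 1, 217 bp from the TSS (chr10:80097492-80097583), was called only in NC with 137 reads there against 216 in TGF-b (log2 ratio 0.51, 0.21 to 0.82).

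The densest members lay in few places. In all 4 tables, regions of Sfi1 (ENSMUSG00000023764), a centrosomal protein, were among the 3 densest. At chr11:3134553-3135459, 2349 bp from the TSS in intron 3, T set reads were 196, 148 and 219 in NC, TGF-b and siRNA, and an S set region at chr11:3142816-3143772 in intron 1 had 510, 750 and 388. The S set ratios there were 0.14 (-0.03 to 0.30) with TGF-b and -1.09 (-1.27 to -0.92) with siRNA. A region assigned to the predicted gene Gm13448 (chr2:34794766-34795441) had 147, 228 and 126 reads in the T set, highest in TGF-b. Another S set region, at Gm33838 (chr9:35216511-35216884), had 601, 379 and 491 reads, lowest in TGF-b, with ratios of -1.09 (-1.28 to -0.91) and 0.25 (0.05 to 0.44). These regions are wide and deep in every library of their set, and whether repeated sequence adds reads there was not tested.

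The largest differences rested on a library with almost no reads. With TGF-b in the T set, a region in intron 2 of Begain (chr12:109010600-109010831) had 0, 34 and 9 reads in NC, TGF-b and siRNA, at least 9.81-fold higher with TGF-b when NC is set to the floor of 3 reads. Begain encodes a protein of synapses. Regions of Rnf123 (chr9:107945207-107945323; 0, 30 and 4 reads), a ubiquitin ligase subunit, and Gm45708 (chr8:94296433-94296582; 0, 29 and 1 reads) were at least 8.72-fold and 8.45-fold higher. The lowest were neighbouring regions in intron 2 of Nuak1 (chr10:84237219-84237346 and chr10:84237716-84237913), an AMPK-related kinase, which share their reads, 107 in NC against 1 in TGF-b (log2 ratio -5.67, -9.17 to -4.15). A region assigned to 1700015H07Rik (chr15:53481645-53481721) had 67 reads in NC and 0 in TGF-b and was at least 15.5-fold lower. None of these 6 regions lay within 3 kb of a TSS.

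With siRNA in the T set, regions of Muc5ac, a secreted mucin (chr7:141345098-141345163), and Gm29388 (chr9:102027887-102028008) each had 0 reads in TGF-b and 38 with siRNA, at least 13.3-fold higher. A region upstream of a TSS of Traf3 (chr12:111212011-111212135), which encodes an adaptor of TNF receptor signalling, had 10, 1 and 57 reads, a log2 ratio of 5.32 (3.77 to 8.81). The lowest regions had 0 reads with siRNA. In intron 3 of Tns1, which encodes the focal adhesion protein tensin (chr1:74073995-74074265), reads were 21, 43 and 0, at least 8.04-fold lower. In intron 1 of Klhl18 (chr9:110305213-110305584), 260 bp from the TSS whose promoter is printed above, reads were 42, 39 and 0, at least 7.31-fold lower. A Fam171a2 region (chr11:102336386-102336522) had 1, 36 and 0 reads and was at least 6.77-fold lower. The Tns1 and Klhl18 regions were well covered in both other libraries, and the Fam171a2 region in TGF-b alone.

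S set extremes were smaller. With TGF-b, a region of Tm2d3 94 bp from a TSS (chr7:65343294-65343439) had 0, 24 and 7 reads in NC, TGF-b and siRNA, at least 4.11-fold higher. A region of Ostm1, a lysosomal membrane protein (chr10:42462643-42462817), had 3, 47 and 11 reads, with a log2 ratio of 3.02 (1.80 to 5.005), and one of Spdye4c (chr2:128433477-128433648) had 1, 30 and 10, with 3.37 (1.78 to 6.86). Lowest were regions of the transporter gene Slc38a6 (chr12:73387682-73387821; 17 reads and 0) and of 4930483O08Rik (chr7:132734473-132734662; 15 and 0), at least 6.87-fold and 6.12-fold lower, and one upstream of the potassium channel subunit gene Kcne4 (chr1:78785336-78785410; 20 and 1), with -3.99 (-7.47 to -2.36). With siRNA, regions of Ldhal6b (0 and 22 reads, at least 6.37-fold), Zfp507 (1 and 18, 3.38, 1.75 to 6.86) and Lyar (1 and 17, 3.305, 1.66 to 6.78) were highest. Regions of Tsc2, an inhibitor of mTORC1 (5, 19 and 0 reads), Slc26a5, the hair cell motor protein prestin (0, 19 and 0), and Htt, huntingtin (3, 19 and 0), were at least 4.50-fold lower with siRNA. In intron 1 of Matn1 (chr4:130671781-130671992), 190 bp from the TSS whose promoter is printed above, reads were 15, 27 and 4, with a log2 ratio of -2.39 (-4.11 to -1.21). The regions assigned to Kcne4, Ldhal6b and Zfp507, like those of Gm13448, 1700015H07Rik and Gm29388 in the T set, lay in an intron of another gene. The regions with the largest differences were chosen for that size, so their values are a description.

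Genes were then described by role, from 5 lists of 120 genes in all. Reads of all 3 libraries exist mostly for regions called in TGF-b, which favours regions with high reads in that library. T set members called only in TGF-b had medians of 1.33 with TGF-b and -1.36 with siRNA. Their medians are to be read beside those of all regions, -0.65 and 0.97 in the T set and -0.20 and -0.21 in the S set, for TGF-b and siRNA, and their counts beside the shares of all regions at least 2-fold higher and lower. For TGF-b against NC in the T set, 18 of 26 genes of fibroblast identity and matrix had 42 near-TSS intron regions, of which 6 (14.3%) were at least 2-fold higher and 16 (38.1%) lower, against 17.3% and 42.1% of all regions (median -0.72). In the table of siRNA with TGF-b, 15 of these genes had 35 regions, 9 (25.7%) higher and 5 (14.3%) lower, against 49.7% and 16.2% (median 0.45). The deepest region was in intron 4 of Sparc, a collagen-binding matrix protein (chr11:55296876-55297131), with 24, 41 and 44 reads in NC, TGF-b and siRNA, lowest in NC (0.76, 0.06 to 1.503 with TGF-b). Timp3, an inhibitor of matrix proteases (chr10:86146524-86146759), had 14, 32 and 18 reads, highest in TGF-b (1.18, 0.35 to 2.13, and -0.32, -1.18 to 0.46). Mmp2, a gelatinase (chr8:93574042-93574317), went the other way with 37, 17 and 23 reads (-1.05, -1.91 to -0.27, and 0.88, 0.02 to 1.80). Ddr2, a collagen receptor (chr1:169908560-169908709), had 29, 9 and 12 reads, with ratios of -1.52 (-2.68 to -0.57) and 0.84 (-0.34 to 2.09).

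Only up to 5 genes of the list with the most reads are named per table, so other regions of collagen and matrix genes are not described. Among the collagen genes, a Col1a2 region (chr6:4507460-4507544) had 21 reads in NC and 14 in TGF-b, not distinguishable at this depth (-0.49, -1.48 to 0.44). A Col1a1 region in intron 1, 327 bp from the TSS (chr11:94827345-94827409), had 31 reads in TGF-b and 6 with siRNA (-1.73, -3.13 to -0.68), and was called only in the siRNA library, with a promoter region in its window. A Col6a1 region (chr10:76549451-76549621) had 11, 16 and 16 reads, with both intervals including 0. The S set had 4 genes of this list with 5 regions for TGF-b against NC and 5 genes with 7 regions for siRNA. Of these, 1 was at least 2-fold higher and 3 lower with TGF-b (median -1.36), and 2 were higher and 1 lower with siRNA (median 0.43), beside 17.4% and 26.7%, and 15.1% and 27.8%, of all regions. A region near a TSS inside Fn1, fibronectin, had 9 and 2 reads (-2.34, -4.81 to -0.73), and a Postn region (chr3:54270220-54270303) had 4 reads in TGF-b and 13 with siRNA (1.60, 0.27 to 3.36). Postn encodes periostin, a matrix protein of activated fibroblasts.

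Of the contractile and cytoskeletal genes of the SRF pathway, 14 of 30 had 45 T set regions for TGF-b against NC, 4 (8.89%) higher and 17 (37.8%) lower against 17.3% and 42.1% of all regions (median -0.58). For siRNA against TGF-b, 15 had 52, 29 (55.8%) higher and 1 (1.92%) lower against 49.7% and 16.2% (median 1.26). Cald1, the actin-binding caldesmon (chr6:34725816-34726003), had 54, 10 and 13 reads, highest in NC although called only in TGF-b (-2.29, -3.35 to -1.44). Tpm2, a tropomyosin (chr4:43522993-43523251, 266 bp into the gene), had 36, 18 and 29 reads, lowest in TGF-b (-0.93, -1.78 to -0.17, and 1.13, 0.32 to 1.997). The Myl9 region (chr2:156617566-156617634), 260 bp past the start whose promoter holds the CArG box printed above, had 27 reads in NC and 22 in TGF-b (-0.25, -1.06 to 0.54). Regions of Mylk, myosin light chain kinase (11 and 38 reads; 2.17, 1.31 to 3.21), Mrtfa, the actin-sensing SRF cofactor (6 and 28; 2.51, 1.45 to 3.92), and Tln1, talin (9 and 20; 1.53, 0.51 to 2.72), were higher with siRNA than with TGF-b, each called only in the siRNA library. The S set, taken to be SRF, had 4 regions at 2 genes of this list for TGF-b against NC, none at least 2-fold higher and 3 lower, where 17.4% and 26.7% of all regions were. For siRNA it had 5 at 4 genes, 3 higher and none lower, where 15.1% and 27.8% of all regions were. At Fhl2, a LIM protein gene that SRF activates, 20 reads in TGF-b stood against 21 in NC (-0.62, -1.49 to 0.25) at 401 bp from the TSS.

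For the YAP/TAZ and TEAD pathway, 17 of 26 genes had 67 T set regions, 8 (11.9%) higher with TGF-b and 27 (40.3%) lower, against 17.3% and 42.1% of all regions (median -0.50). With siRNA 19 genes had 56, 25 (44.6%) higher and 9 (16.1%) lower, against 49.7% and 16.2% (median 0.51). Amotl2, an inhibitor of YAP and TAZ that is itself their target, had most reads in the TGF-b library, a pattern favoured among regions read in all 3 libraries. Its intron 6 region (chr9:102603580-102603756) had 9, 49 and 6 reads in the same order of libraries, with ratios of 2.37 (1.48 to 3.49) and -2.37 (-3.75 to -1.37). Tead3, a DNA-binding partner of TAZ, had fewer reads with TGF-b at 2 neighbouring regions of intron 2 whose windows overlap, with 94, 38 and 23 reads at one (chr17:28560046-28560306; -1.33, -1.89 to -0.81, and -0.22, -0.99 to 0.49). An S set region at the same place (chr17:28560187-28560355) was opposite, with 5, 27 and 15 reads, highest in TGF-b (1.65, 0.54 to 3.19, and -0.75, -1.69 to 0.11). Of 10 S set regions at 7 genes of this list, 1 was at least 2-fold higher with TGF-b, the one at Tead3, and 1 lower (median -0.37), and of 8 with siRNA none was higher and 1 lower (median -0.38), where 17.4% and 26.7%, and 15.1% and 27.8%, of all regions were. Tead1 in the T set had 27, 38 and 38 reads, the receptor kinase gene Axl 43, 35 and 20, and the TEAD cofactor gene Vgll3 47, 46 and 31, each with intervals that include 0 in both comparisons.

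Of 24 TGF-b pathway genes, 14 had 38 T set regions with TGF-b, 10 (26.3%) higher and 14 (36.8%) lower against 17.3% and 42.1% of all regions (median -0.61), and 14 had 41 with siRNA, 21 (51.2%) higher and 7 (17.1%) lower against 49.7% and 16.2% (median 1.02). Smurf1, in intron 1 at 607 bp from the TSS whose promoter is printed above (chr5:144901896-144902189), had 73, 42 and 33 reads, highest in NC (-0.82, -1.38 to -0.29, and 0.14, -0.52 to 0.78). Smad3, the effector of TGF-b receptors (chr9:63623463-63623687), had 40, 10 and 10 reads, with ratios of -1.85 (-2.93 to -0.97) and 0.46 (-0.77 to 1.69). Eng, the co-receptor endoglin (chr2:32543868-32544208), had 38, 25 and 7 reads, lowest with siRNA (-0.57, -1.31 to 0.13, and -1.24, -2.55 to -0.20). For the S set, 7 genes had 10 regions with TGF-b and 9 had 11 with siRNA. An S set region of Eng (chr2:32559289-32559489) had 2, 16 and 8 reads, highest in TGF-b (1.91, 0.44 to 4.37), at another intron than the T set region. Of the S set regions of this list, 4 were at least 2-fold higher with TGF-b and 2 lower, beside 17.4% and 26.7% of all regions, and with siRNA none was higher and 3 lower, beside 15.1% and 27.8%.

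Mechanosensing genes and genes of the study made up the last list. Of 15 such genes, 14 had 64 T set regions with TGF-b, 7 (10.9%) higher and 33 (51.6%) lower beside 17.3% and 42.1% of all regions (median -1.098), and 14 had 47 with siRNA, 21 (44.7%) higher and 7 (14.9%) lower beside 49.7% and 16.2% (median 0.85). Piezo1, a stretch-gated channel (chr8:123275564-123275984), had 24, 48 and 11 reads, highest in TGF-b (0.97, 0.30 to 1.70, and -1.56, -2.58 to -0.72). Rock1, a kinase of actomyosin contraction (chr18:10103159-10103437), had 46, 26 and 38 reads, lowest in TGF-b (-0.80, -1.51 to -0.13, and 1.01, 0.31 to 1.74). Tns1 had 18 regions in each T set table, with log2 ratios between -3.10 and 3.23 with TGF-b and between -5.01 and 2.78 with siRNA, so regions of one gene lay on both sides of 0. The S set had 12 regions of this list with TGF-b, 1 higher and 5 lower (median -0.75), and 6 with siRNA, 2 higher and 1 lower (median 0.04), beside 17.4% and 26.7%, and 15.1% and 27.8%, of all regions. Piezo2, the channel studied, had an S set region (chr18:63452765-63453077) with 5, 9 and 5 reads, not distinguishable between libraries at this depth, and another (chr18:63213371-63213501) with 12 reads in NC and 7 in TGF-b (-1.28, -2.66 to -0.05). The interval of this other region lies below 0 only through the authors' rescaling, which lowered TGF-b relative to NC.

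**Figure D4:**
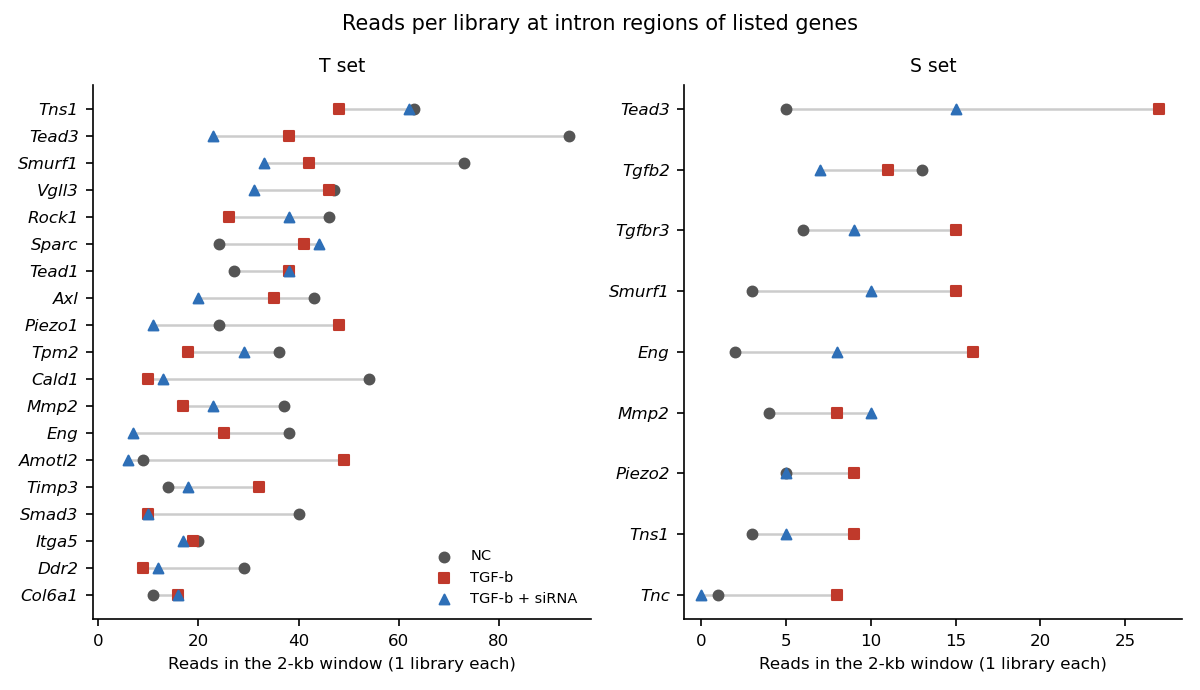
Reads in the window of 2 kb, not scaled between libraries, in the NC, TGF-b and TGF-b with siRNA library at the deepest named intron region of 19 listed genes (T set) and 9 (S set) that were read in all 3 libraries of the set; each symbol is 1 library. Amotl2, Piezo1 and Timp3 have most reads in TGF-b, while Tead3, Smurf1, Cald1 and Smad3 have most in NC in the T set.

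A region was read in all 3 libraries of a set where both of its tables list it, which mostly means that it was called in TGF-b, so the plotted genes favour regions with reads in that library. The reads are not scaled. In the S set the authors' rescaling lowered TGF-b relative to NC, so that 20 and 21 reads at Fhl2 gave a log2 ratio of -0.62.

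Genes with the most near-TSS intron regions were then listed. In the T set with TGF-b, Frmd4b, Shank2 and Tns1 had 18 each, Dst 17 and Nedd4l 15. Frmd4b, a scaffold protein gene, had a median of -0.03 with 4 regions at least 2-fold higher and 6 lower, and Dst, a linker of cytoskeletal filaments, one of -0.90 with 3 and 7, where 17.3% and 42.1% of all regions of this table were higher and lower. With siRNA, Dst had 19, Tns1 18, Pcdh15 17, Ank3 16 and Pde4d 15, with medians from 0.06 at Tns1 to 1.44 at Pde4d. The most in the S set were 7 at Plekha7, an adherens junction protein, and 6 each at Dlgap1 and Elavl2 with TGF-b, and 8 at Fcgbp and 6 each at Ripor2 and Fhip1a with siRNA. At Fcgbp none of the 8 was 2-fold apart in either direction, where 15.1% of all regions were higher and 27.8% lower. No gene held more than 19 members in any table.

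Marker genes of other cell types also carried regions. For TGF-b against NC in the T set, 11 regions of 5 of 10 fibroblast markers had 136 reads in NC and 44 in TGF-b, and 19 regions of 8 of 10 endothelial markers 286 and 91 (medians -1.24 and -1.77). For 17 regions of 6 cardiomyocyte markers the reads were 134 and 91, and for 6 regions of 4 immune markers 82 and 33 (medians -0.66 and -0.91). These sums are not scaled between libraries, and over all regions of the table the median reads were 9 and 5 and the median log2 ratio -0.65. With siRNA, cardiomyocyte and endothelial markers had summed reads of 103 and 191, and of 125 and 207 in TGF-b and siRNA, immune markers of 29 and 50, and fibroblast markers of 93 and 61. Their medians were 1.18, 1.05, 1.04 and 0.29 in this order, and over all regions the median was 0.97 with median reads of 5 and 6. In each S set table, 1 of 10 fibroblast markers and no immune marker had a near-TSS intron region. A part of other cells in these values was not tested.

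Overlap between the T and S sets was counted next. For TGF-b against NC, 697 of 26176 T set members overlapped an S set region by at least 1 bp (2.66%, 2.47% to 2.86%), and 692 of 6090 S set members a T set region (11.4%, 10.6% to 12.2%). Over all regions of these tables the shares were 3.98% and 12.7%. Within 1 kb the shares were 4.25% and 16.8%, and beyond it 2.43% and 10.5%. For siRNA against TGF-b, 857 T set members (3.28%, 3.08% to 3.51%) and 848 S set members (13.7%, 12.8% to 14.5%) overlapped the other set, against 4.69% and 15.9% of all regions. Shared regions were denser, with T set medians of 6.39 in TGF-b and 7.61 with siRNA against 2.57 and 4.67 for the others, and their median log2 ratio with siRNA was 0.18 against 0.97. For the S set it was 0.14 against -0.21. With TGF-b, the medians of shared and other regions were -0.42 and -0.69 (T set) and -0.25 and -0.19 (S set). By gene, 3428 genes had a near-TSS intron region in both sets for TGF-b against NC, which was 25.8% of the T set genes and 69.7% of the S set genes. For siRNA against TGF-b it was 3640 genes, 27.2% and 72.5%. The shares over all genes with any region were not computed, so these gene shares have no background beside them.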

How the data were processed

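CUT&Tag was performed on 6 libraries of primary mouse cardiac fibroblasts, and 4 tables of regions, each of a pair of libraries, were read. The deposited signal is a read density per kb that the authors rescaled within each table along a line against mean density, so that regions called in both libraries centre on 0. The study's methods name GRCm39 and Bowtie2, while the submitters' processing notes list mm10 and BWA 0.7.12, and scaffold names in the tables are those of GRCm39. The authors' own fold changes and p-values in the tables were not used.

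The line was recovered from the densities, which returned whole reads (tolerance 0.1) for 100% of near-TSS intron regions. The recovery was tested on simulated data. A window of 2 kb centred on the region's midpoint was assumed for shared reads. The log2 ratio is the later density over the earlier one, and 95% intervals are Wilson intervals for shares and, through the share of the later library in a pair's reads, for ratios, and rank intervals for medians. With 1 library per group no count model or p-value across samples was possible, and calls are regions at least 2-fold apart. Against 0 reads, a fold is a lower bound with 0 set to a floor of 3 reads. Python 3.11.15, numpy 2.4.6, pandas 2.3.3 and scipy 1.17.1 were used.

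Members and gene lists were chosen with earlier results of these data known. Named regions were, per table, the 3 of highest mean density, the 3 above and 3 below 0 with the most distant interval bound among regions above the table's median density, the deepest regions of up to 5 genes per list, and the 5 genes with the most regions. Genes tied at the last place are not all named. The promoters were chosen within 1 kb of a TSS, and Myl9 and Smurf1 were picked among listed genes after their values were seen. Alternatives were the line, centring, a density filter, the floor, a pseudocount, the distance limit, the fold and the overlap.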

Additional observations from a re-analysis of the deposited data

Results flagged for a closer look

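The T and S sets lay on opposite sides of 0 in the siRNA comparison. The median log2 ratio of near-TSS intron regions was 0.94 (T set) and -0.15 (S set), 1.08 apart, and -0.03 and 0.06 after centring on the median of each table. The gap was 0.59 within 1 kb of the TSS, 0.95 between 1 and 2 kb, 1.19 between 2 and 5 kb and 1.198 between 5 and 10 kb. With TGF-b against NC, the medians within 1 kb were -0.21 (T set) and 0.06 (S set, -0.04 to 0.18), a gap of -0.28. Each set has 1 library per treatment, so these differences were not tested.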

How the results depend on the processing

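No paired analysis was possible because each group has 1 library, and leaving out a replicate was not possible for the same reason. Comparisons below are named as T and S set with TGF-b (against NC) and with siRNA (against TGF-b), and the cause of each shift was not tested. Without the authors' line, the T set medians were -0.81 with TGF-b and 0.49 with siRNA, those of the S set 0.36 (from -0.19) and -0.23, and 2058 S set regions were higher and 992 lower with TGF-b. Centred on the median of all regions (shifts of -0.65, 0.97, -0.20 and -0.21), the medians were -0.042, -0.034, 0.0027 and 0.063, with the sign turned in all but the first, and in the T set 6644 regions were higher and 7063 lower with TGF-b, and 7291 and 7649 with siRNA. The higher share of regions past 2-fold was 27.7% and 48.5% when centred in the T set with TGF-b, 75.1%, 65.1% without the line and 48.8% when centred with siRNA, 40.8%, 67.5%, 50.5% and 31.0% with the floor in the S set with TGF-b, and 39.5% and 51.6% when centred with siRNA. Above the table's median density, T set medians were -0.61 and 0.87, with 1663 higher and 5514 lower with TGF-b, 6558 and 1599 with siRNA, and in the S set 351 and 610, and 279 and 605. Within 5 kb, T set medians were -0.63 and 0.86, with 2444 and 6156, 7073 and 2442, 648 and 940, and 615 and 883 higher and lower in the same order of comparisons. At 4-fold these counts were 2444 and 5448, 7253 and 2473, 340 and 569, and 304 and 519. With 3 reads or fewer set to 3, T set medians were -0.44 and 0.76, 2239 T set regions were lower with siRNA and 731 S set regions higher with TGF-b. Adding 1 unit of density gave T set medians of -0.55 and 0.73. Chosen after seeing the data, leaving out regions with a promoter region in the window gave -0.73 and 0.97, and leaving out those with any other region there 0.97 with siRNA. At 50% overlap, shared regions were 2.05% of the T set and 8.72% of the S set with TGF-b, and 2.68% and 11.2% with siRNA. Depth limits many single regions, since 28.3% to 54.1% of members have 3 reads or fewer in a library.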
